A study of Schizosaccharomyces pombe with 8 samples.

Results

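The genes of the cap-binding complex eIF4F, its helper factors and the poly(A)-binding protein are described here in fission yeast (Schizosaccharomyces pombe) with and without the protein Slr1p, the homolog of LARP1 in this yeast. The members are 6 genes, matched by their symbol in the RefSeq annotation to the gene identifiers of the deposited table: tif45, tif471, tif1, sce3, sum3 and pabp. They were 6 of the 527 genes with counts. The tested strain, labelled slr1- with the genotype KO, was set against the wild-type strain yAS99 (WT), both in total RNA and in polysome RNA, which is the RNA that travels with several ribosomes. There were 4 groups of 2 libraries: slr1- total RNA, WT total RNA, slr1- polysome RNA and WT polysome RNA. All cultures, WT included, grew in YES medium at 32 °C and were exposed to cycloheximide, an inhibitor of translation elongation, at 100 µg/mL. The labels call the 2 libraries of a group biological replicates and do not say whether slr1- is 1 clone. The slr1 gene itself was not analysed here, so the direction of each comparison rests on the sample labels.

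Most eukaryotic mRNAs are translated after eIF4E, the cap-binding protein, has bound the methylated cap at their start. eIF4E is held by eIF4G, a large scaffold that also binds the RNA helicase eIF4A and the poly(A)-binding protein, so that both ends of an mRNA can be bound by 1 assembly. eIF4B stimulates eIF4A, and Ded1 is a second helicase that helps ribosomes scan structured leaders. In mammals LARP1 binds the cap and the adjacent pyrimidine-rich start (5′ TOP motif) of mRNAs that encode ribosomal proteins and translation factors, and the mRNA of the poly(A)-binding protein is a classical member of that class.

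In the RefSeq annotation of assembly ASM294v3 the 6 genes lie on all 3 nuclear chromosomes and each has 1 transcript model. tif45 (SPAC16E8.15) encodes eIF4E, a protein of 218 residues, from 3 exons with 1092 transcript bases. tif471 (SPAC17C9.03) encodes eIF4G, the longest of the proteins with 1403 residues, from 1 exon of 4627 bases. tif1 (SPAC1006.07) encodes eIF4A (392 residues, 1 exon, 1502 bases), sce3 (SPBC18H10.04c) eIF4B (388 residues, 4 exons, 1559 bases), and sum3 (SPCC1795.11) the Ded1 helicase (636 residues, 1 exon, 2715 bases). pabp (SPAC57A7.04c) encodes the major poly(A)-binding protein (653 residues, 1 exon, 2436 bases). Except for tif471, each gene overlaps at least 1 annotated noncoding RNA on the opposite strand, by 39 to 671 bases, and whether the counting used strand is not given in the sources used here.

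Because the study concerns mRNAs with TOP-like starts, the 30 bases around each annotated transcript start are shown, 15 before it and 15 from it on, read 5′ to 3′ on the gene's strand from ASM294v3. Capitals mark the longest unbroken run of C and T in each window.

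tif45, chrI:3528138-3528167, plus strand: ccaTTCTTTCTagccagaaccatgcagact

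tif471, chrI:4496564-4496593, minus strand: tctattgCTTCTCTTgaccaccaccactaa

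tif1, chrI:5085515-5085544, plus strand: caaCTTTTTTTCCacaacccactcacctag

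sce3, chrII:1776955-1776984, minus strand: agaatcgcaaatattaaaTCTgtcgagaac

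sum3, chrIII:976699-976728, minus strand: tggccaacttaacctaaCCTCaaccaaaca

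pabp, chrI:1542771-1542800, plus strand: acaTTCCTTCCTTCgcaaaccacaaaacct

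The longest run was 11 bases in pabp, 10 in tif1, 8 in both tif45 and tif471, 4 in sum3 and 3 in sce3. In tif45, tif471, tif1 and pabp the run lay wholly before the annotated start, so by the annotation it is not part of the mRNA. The accuracy of these starts was not tested. Of the 6 genes, 0 had 4 pyrimidines in a row from the annotated start on, against 0.388% of the listed genes. The annotated transcript of pabp starts with 1 pyrimidine, and those of the other members start with none. The annotated leader of tif45 before its coding sequence has only 6 bases, against 79 in pabp. A run of at least 8 bases occurred in 107 of 515 listed genes with a model (20.8%) and in 19 of 126 ribosomal protein (RP) genes (15.1%). The length of 8 was chosen after the members' runs had been seen. A second sequence, the HomolD box found in many RP promoters of this yeast, was searched as CAGTCACA on both strands from 250 bases before to 50 bases after the start. Among the 6 genes, tif1 alone held it, 54 bases before its start, as the reverse complement. The box was found in 64.3% of the 126 listed RP genes, in 20.0% of the 515 listed genes and in 2.66% of 5144 protein-coding genes of the reference. The 100 bases before the start of tif1 are shown with the box in capitals.

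tif1 upstream, chrI:5085430-5085529, plus strand: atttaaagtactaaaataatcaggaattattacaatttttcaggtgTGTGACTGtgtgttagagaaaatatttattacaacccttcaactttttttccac

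Counts over the listed genes summed to 984147 and 1110838 in slr1- total RNA, 792679 and 802359 in WT total RNA, and 550490 to 666057 in the polysome libraries, and these sums are not the depth of the libraries. The members had 126 to 4042 counts per library and together held 0.680% to 1.30% of the listed counts. RP genes held 50.3% and 54.3% of the listed counts in slr1- total RNA, against 45.3% and 45.5% in WT total RNA, and the scaling of the other genes depends on how this is treated. Normalised counts below are counts divided by TMM-scaled library sizes (a trimmed mean over all listed genes), brought to a common size. RP-free scaling below means TMM factors from the listed genes that are not RP genes. The median log2 fold change of slr1- over WT over all genes in total RNA was 0.15 under RP-free scaling, -0.19 with all genes in the factors and -0.37 with library sizes alone. The genes that passed were then 182 higher and 72 lower (RP-free scaling), 104 higher and 177 lower (all genes) and 60 higher and 260 lower (library sizes alone).

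**Figure D1:**
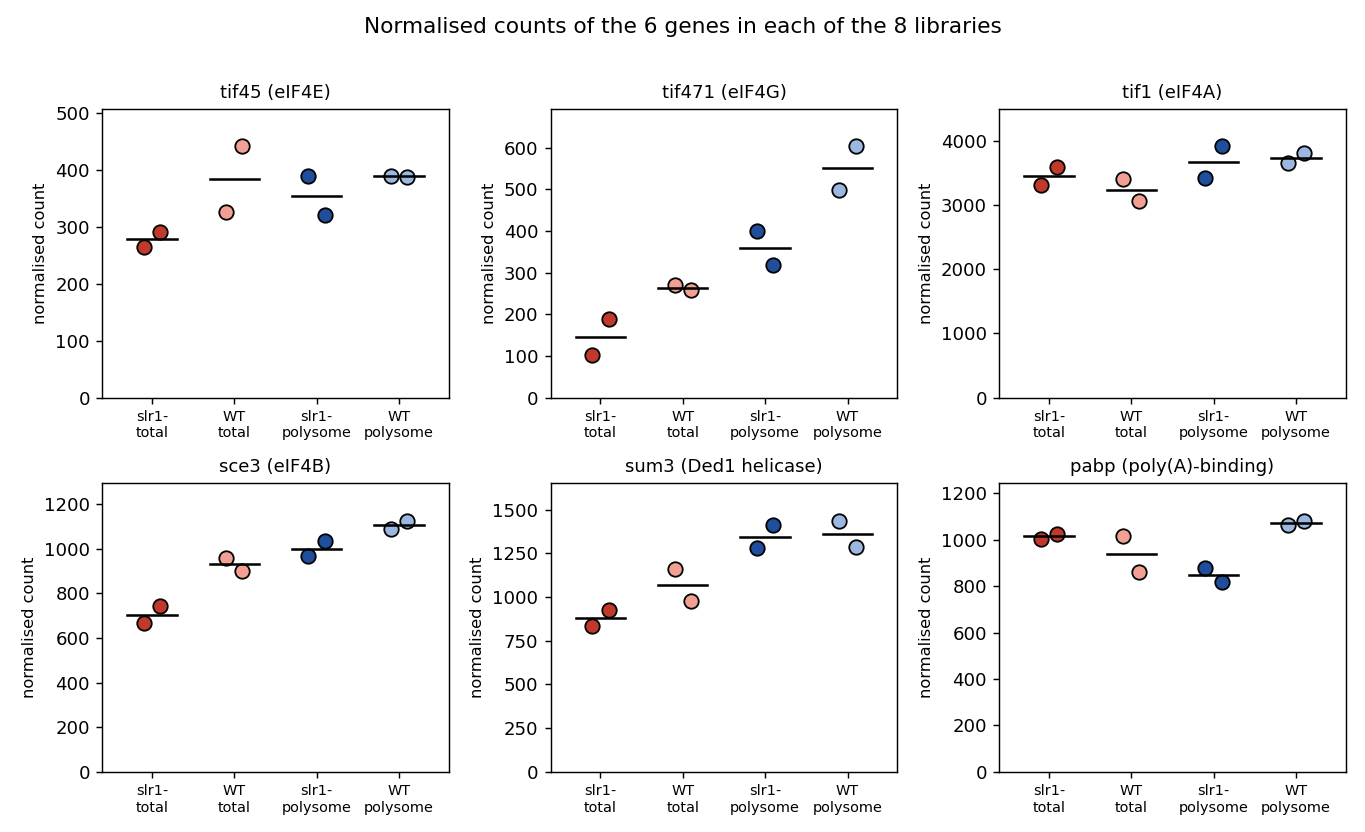
Normalised counts (y axis, from 0) of the 6 genes in each library, by group (x axis). Points are libraries and bars are the means of 2. tif471 is lowest in slr1- total RNA (103 and 189) and highest in WT polysome RNA (498 and 603), and pabp is lowest in slr1- polysome RNA (816 and 878).

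Per kilobase of transcript, eIF4A was by far the most abundant of the 6 mRNAs and eIF4G the least. tif1 averaged 2302 ± 137 normalised counts per kilobase in slr1- total RNA and 2156 ± 156 in WT total RNA (SD, n = 2 each), ranks 121 and 115 of 515 listed genes with a known length. tif471 averaged 31.6 ± 13.1 per kilobase in slr1- total RNA and 57.1 ± 1.52 in WT total RNA, rank 512 of 515 in both. The level of tif1 per kilobase was therefore 72.9 times that of tif471 in slr1- total RNA and 37.8 times in WT total RNA. In polysome RNA the ratio of these levels was 31.4 in slr1- and 20.9 in WT. sce3 (452 ± 34.4 in slr1-, 596 ± 25.6 in WT) came second in total RNA. pabp (416 ± 6.13 in slr1-, 385 ± 44.4 in WT), sum3 (324 ± 23.1 in slr1-, 393 ± 48.0 in WT) and tif45 (255 ± 17.1 in slr1-, 352 ± 74.5 in WT) lay between sce3 and tif471. The WT means of pabp, sum3 and tif45 differed by less than their SD, whereas in slr1- total RNA no library of these 3 genes overlapped with one of another gene. In polysome RNA the order was tif1, sce3, sum3, pabp, tif45 and tif471 in both strains, and the values of pabp and tif45 overlapped in slr1-.

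In total RNA, slr1- was compared with WT to ask whether the mRNA level of each factor differs without Slr1p. The mRNAs of the scaffold eIF4G, the cap-binding protein eIF4E and the helicase cofactor eIF4B fell, and those of eIF4A, the Ded1 helicase and the poly(A)-binding protein did not pass the test. Thus 3 of the 6 genes fell, against 33.6% of all 527 genes, and 0 rose, against 19.7% of all genes (edgeR quasi-likelihood test, adjusted p under 0.05 over all genes). In 4 of the 6 genes both slr1- libraries lay below both WT libraries, which held for 47.8% of all genes. The median log2 change of the 6 genes was -0.34, beside -0.19 over all genes, 0.38 over RP genes and -0.36 over the other genes. The count depends on 1 library and on the scaling. Without replicate 1 of slr1- total RNA 0 members passed, and 1 fell with DESeq2, with compared groups only or without replicate 1 of WT total RNA. Under RP-free scaling 0 fell and 2 rose, namely tif1 (0.43 on the log2 scale) and pabp (0.45). At that scaling 72 of all 527 genes fell and 182 rose. The counts are shares of listed RNA in whole cultures, so fewer cells holding an mRNA and less of it per cell cannot be told apart.

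tif471, the eIF4G gene, had 103 and 189 normalised counts in slr1- total RNA, against 269 and 259 in WT total RNA. Both slr1- libraries were below both WT libraries, and they differed more from each other than the WT pair. Its slr1- level was 0.551 times that of WT (log2 -0.86 ± 0.25 SE, 95% interval -1.41 to -0.31, adjusted p 0.0153), and 45 of the 527 genes had a lower value. The gap of -0.87 on the log2 scale between replicates 1 and 2 of slr1- was reached or exceeded by 3 of the 527 genes in that group, tif471 included, where the median gap was 0.19. Without replicate 1 of slr1- total RNA the change was -0.48 (adjusted p 0.109), without replicate 1 of WT total RNA it was -0.83 (0.0521), and under RP-free scaling it was -0.54 (0.0602). Over 12 alternatives it ranged from -1.35 to -0.48 with adjusted p from 0.00390 to 0.109, and it passed in 9.

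tif45, the eIF4E gene, had 265 and 292 normalised counts in slr1- total RNA, against 327 and 442 in WT total RNA. The strains did not overlap, but the closest libraries of the 2 strains lay no farther apart than the 2 WT libraries. The level in slr1- was 0.724 times that in WT (log2 -0.47 ± 0.18 SE, 95% interval -0.85 to -0.08), and its adjusted p of 0.0450 was just under the threshold. It passed in 3 of 12 alternatives (adjusted p 0.0132 to 0.511), and 1 of the 3 is a count filter that removed no gene and repeats the main fit. The call was lost without replicate 2 of WT (-0.23), replicate 1 of slr1- (-0.40) or replicate 2 of slr1- (-0.53), with the replicate block (-0.46, adjusted p 0.0603), and with DESeq2 (-0.39), its size factors (-0.39), limma-voom (-0.45), compared groups only (-0.34) and TMM factors computed without RP genes (-0.13).

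sce3, the eIF4B gene, had 666 and 742 normalised counts in slr1- total RNA, against 957 and 901 in WT total RNA. The gap between the strains was larger than that within either strain. Its level in slr1- was 0.758 times that in WT (log2 -0.40 ± 0.12 SE, 95% interval -0.65 to -0.15, adjusted p 0.0147). The call was lost without replicate 1 of slr1- total RNA (-0.32), without replicate 1 of WT total RNA (-0.36), with DESeq2 (-0.32), with compared groups only (-0.28) and under RP-free scaling (-0.066), so the adjusted p spanned 0.00230 to 0.640 over 13 alternatives.

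sum3, the gene of the Ded1 helicase, had 836 and 925 normalised counts in slr1- total RNA, against 1159 and 975 in WT total RNA. All slr1- values were lower, yet the nearest libraries of the strains lay within the spread of the WT pair. The log2 value was -0.28 ± 0.13 SE (95% interval -0.56 to 0.00469, adjusted p 0.0886), and it passed in 3 of 13 alternatives, without replicate 2 of WT total RNA among them (-0.40, adjusted p 0.0481). tif1, the eIF4A gene, had 3312 and 3602 normalised counts in slr1- total RNA, against 3404 and 3072 in WT total RNA. pabp, the poly(A)-binding protein gene, had 1004 and 1025 normalised counts in slr1- total RNA, against 1014 and 861 in WT total RNA. For both genes the strains overlapped. The log2 values were 0.094 for tif1 (95% interval -0.15 to 0.34, adjusted p 0.475) and 0.11 for pabp (95% interval -0.15 to 0.37, adjusted p 0.427), and neither interval reaches a 1.5-fold change at this scaling. Both signs turned with library sizes alone (-0.086 for tif1 and -0.067 for pabp).

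**Figure D2:**
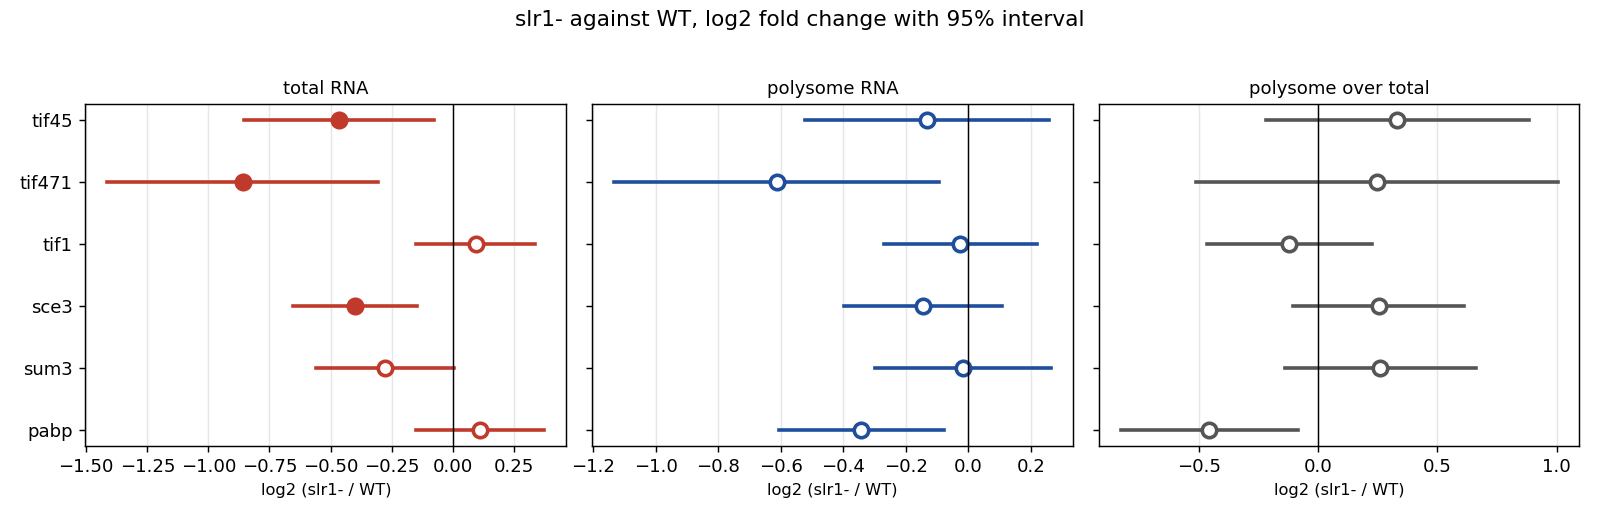
Log2 fold change of slr1- over WT (x axis) for the 6 genes. The panels hold total RNA, polysome RNA and the polysome to total ratio. Points are estimates, lines are 95% intervals, and filled points passed the adjusted p threshold of 0.05. In total RNA tif471 (-0.86), tif45 (-0.47) and sce3 (-0.40) passed, and in the other panels no point is filled.

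The log2 changes in total RNA can also be read against the median change of other genes, and the place of the members then depends on which genes are taken. Minus the median of all listed genes, the change was -0.67 for tif471, -0.28 for tif45, -0.21 for sce3 and -0.089 for sum3, against 0.28 for tif1 and 0.30 for pabp. Minus the median of the genes that are not RP genes, it was -0.50 for tif471, -0.11 for tif45, -0.043 for sce3 and 0.079 for sum3, against 0.45 for tif1 and 0.47 for pabp. tif471 thus stood below both medians and tif1 and pabp above both, while sum3 changed sides. These are differences between log2 changes and carry no test of their own. Counts of 1 gene relative to those of tif1 in the same library take tif1 as the only reference, and tif1 itself stood above both medians. Per 1000 tif1 counts there were 31.2 and 52.4 tif471 counts in slr1- total RNA, against 79.0 and 84.4 in WT total RNA. For sce3 there were 201 and 206 in slr1- total RNA, against 281 and 293 in WT total RNA, and for sum3 252 and 257 in slr1-, against 341 and 317 in WT. tif45 had 80.2 and 81.0 in slr1-, against 96.1 and 144 in WT. In all 4 of these genes the slr1- libraries lay below the WT libraries, which held for 54.6% of the 526 listed genes other than tif1 on this measure. pabp had 303 and 285 in slr1-, against 298 and 280 in WT, and the strains overlapped. These ratios are given as a description, with no test.

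**Figure D3:**
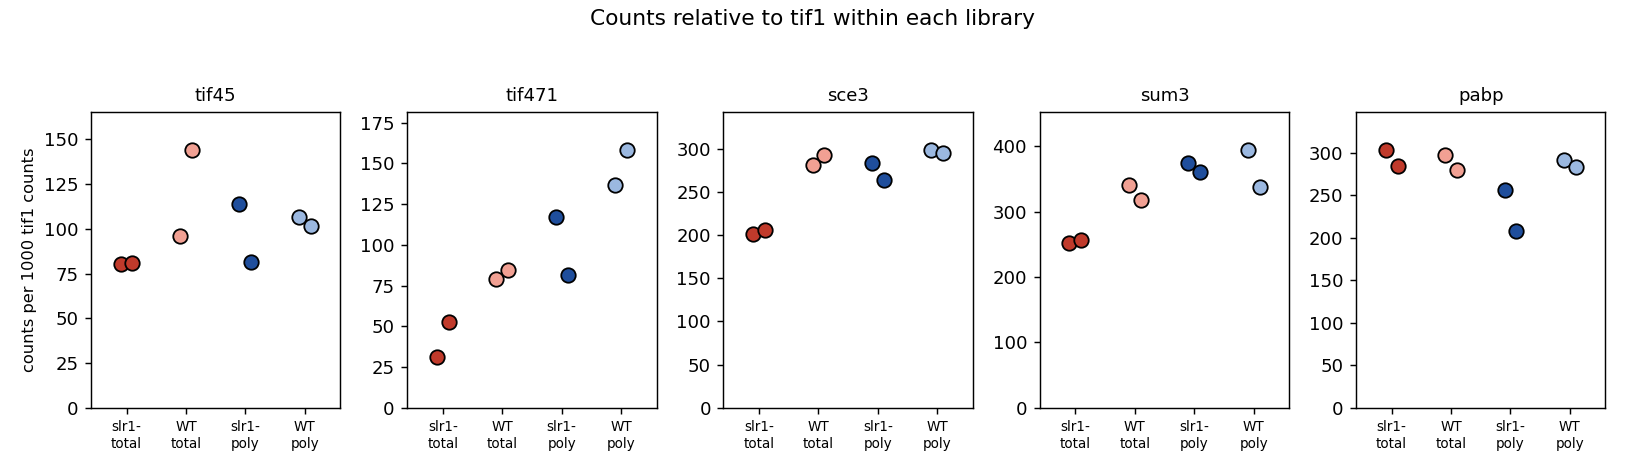
Counts of 5 genes per 1000 tif1 counts in the same library (y axis, from 0), by group (x axis). Points are libraries. In total RNA the slr1- points lie below the WT points for tif45, tif471, sce3 and sum3, whereas those of pabp overlap (303 and 285 in slr1-, 298 and 280 in WT).

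In polysome RNA the question was whether the amount of each mRNA on polysomes differs between the strains. None of the 6 genes passed, and the lowest values belonged to tif471 and pabp. Nor did any gene of the table pass, so the background was 0% (edgeR, 0 of 527 genes, against 100 at an unadjusted p under 0.05, 12 with DESeq2 and 0 with limma-voom). For 3 of the 6 genes, tif471, sce3 and pabp, both slr1- libraries lay below both WT libraries, as did 30.6% of all genes. All 6 log2 values were below 0, with a median of -0.14 beside -0.027 over all genes, and those of tif1 (0.037) and sum3 (0.044) turned under RP-free scaling.

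tif471 had 401 and 319 normalised counts in slr1- polysome RNA, against 498 and 603 in WT polysome RNA. Its value was -0.61 ± 0.24 SE on the log2 scale (95% interval -1.13 to -0.09), at an unadjusted p of 0.0251 and an adjusted p of 0.197, and 7 of the 527 genes had a lower value. It lay between -0.81 and -0.46 in 12 alternatives, with adjusted p from 0.0910 to 0.638. pabp had 878 and 816 normalised counts in slr1- polysome RNA, against 1064 and 1083 in WT polysome RNA. The gap between the strains was larger than that within them. The log2 value of pabp was -0.34 ± 0.12 SE (95% interval -0.61 to -0.08), at an unadjusted p of 0.0160 and an adjusted p of 0.152, and 46 genes lay lower. It stayed between -0.44 and -0.28 over 13 alternatives (adjusted p 0.0910 to 0.600).

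The other 4 genes lay closer to 0 in polysome RNA. sce3 had 969 and 1032 normalised counts in slr1-, against 1089 and 1126 in WT (log2 -0.15, 95% interval -0.40 to 0.11). tif45 had 389 and 320 in slr1-, against 390 and 388 in WT (-0.13, 95% interval -0.52 to 0.26). tif1 had 3421 and 3919 in slr1-, against 3651 and 3819 in WT (-0.025, 95% interval -0.27 to 0.22). sum3 had 1281 and 1413 in slr1-, against 1439 and 1288 in WT (-0.017, 95% interval -0.30 to 0.26). The libraries of the strains overlapped for tif45, tif1 and sum3, and the intervals of tif1, sce3 and sum3 do not reach a 1.5-fold change at this scaling.

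**Figure D4:**
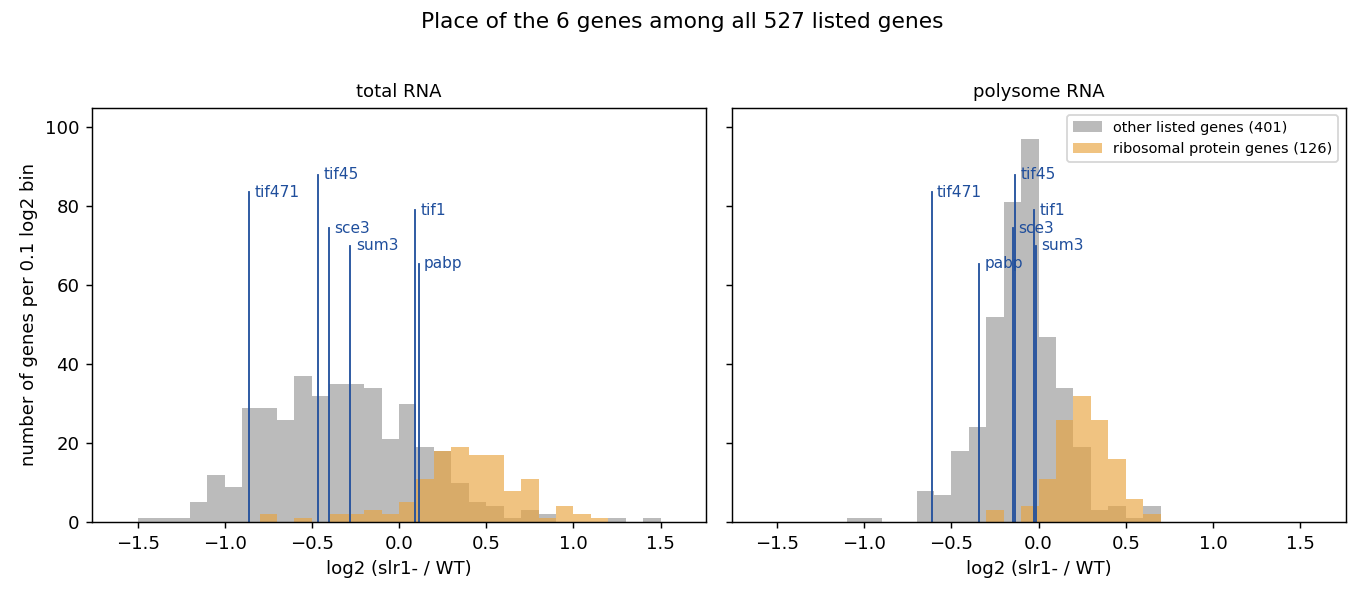
Number of listed genes (y axis) per bin of 0.1 in the log2 fold change of slr1- over WT (x axis), for 126 RP genes and 401 other genes, with the 6 genes as lines whose height has no meaning. In total RNA tif1 (0.094) and pabp (0.11) lie between the medians of other genes (-0.36) and of RP genes (0.38), and in polysome RNA tif471 (-0.61) and pabp (-0.34) lie lowest of the 6.

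The comparison of polysome with total RNA within a strain asked which of the mRNAs are held more in the polysome fraction. Among the 6 genes, eIF4G mRNA stood far apart from the others: at the main scaling its polysome level was more than 2 times its total level in both strains. Under RP-free scaling its log2 value was 0.94 in slr1- and 0.95 in WT. In slr1-, 3 of the 6 genes (tif471, sce3 and sum3) were higher in polysome RNA, against 34.0% of all genes, and in WT 2 (tif471 and sum3) were, against 20.9% of all genes. In slr1- the libraries lay apart and higher in polysome RNA for 4 genes (44.2% of all genes) and apart and lower for pabp (39.3% of all genes), and in WT they lay apart and higher for 5 genes (38.7% of all genes). With library sizes alone 5 of the 6 genes were higher in each strain, against 292 of all 527 genes in slr1- and 246 in WT. Under RP-free scaling only tif471 was higher in either strain, against 100 of all 527 genes in slr1- and 79 in WT. At that scaling pabp was lower in slr1-, as were 246 of all genes.

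For tif471 the polysome level was 2.47 times the total level in slr1- (log2 1.31 ± 0.25 SE, adjusted p 8.9e-04) and 2.08 times in WT (1.06 ± 0.24 SE, adjusted p 0.00439). Its call held in all 12 alternatives in each strain, at 0.93 to 1.80 in slr1- and 0.93 to 1.38 in WT. Of the 527 genes, 498 had a lower value in slr1- and 520 in WT. Between same-numbered libraries the ratio was 3.88 and 1.69 in slr1-, against 1.85 and 2.33 in WT, so the slr1- ratios lay on both sides of the WT ratios.

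The helicase genes and the eIF4B gene were nearer to an even ratio. For sum3 the polysome level was 1.53 times the total level in slr1- (log2 0.61 ± 0.13 SE, adjusted p 0.00156) and 1.28 times in WT (0.35 ± 0.13 SE, adjusted p 0.0410). The WT call of sum3 was lost in 6 of 13 alternatives: without replicate 2 of WT total RNA (0.23), without replicate 1 (0.27) or 2 (0.45) of WT polysome RNA, with the replicate block (0.35, adjusted p 0.0523), with compared groups only (0.38) and under RP-free scaling (0.25). For sce3 the ratio was 1.42 in slr1- (0.51 ± 0.12 SE, adjusted p 0.00265) and 1.19 in WT (0.25 ± 0.11 SE, adjusted p 0.0862). The slr1- values of sce3 and sum3 lost their calls under RP-free scaling (0.13 and 0.24). tif1 was at 0.086 in slr1- and 0.21 in WT, and tif45 at 0.35 in slr1- and 0.017 in WT, without passing in either strain.

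At the main scaling pabp was the member whose sign differed between the strains. Its value was -0.26 ± 0.12 SE in slr1- (adjusted p 0.0761) and 0.19 ± 0.12 SE in WT (adjusted p 0.195), so neither passed. The slr1- call was made with DESeq2 size factors (-0.33, adjusted p 0.0295), with DESeq2 (-0.33, adjusted p 0.0418), under RP-free scaling (-0.64, adjusted p 0.00184) and without replicate 1 of slr1- polysome RNA (-0.42, adjusted p 0.0436), and the value turned to 0.14 with library sizes alone. Between same-numbered libraries the normalised ratio of polysome to total RNA was 0.875 and 0.796 in slr1-, against 1.05 and 1.26 in WT. Under RP-free scaling tif1 also had opposite signs, at -0.29 in slr1- and 0.10 in WT.

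**Figure D5:**
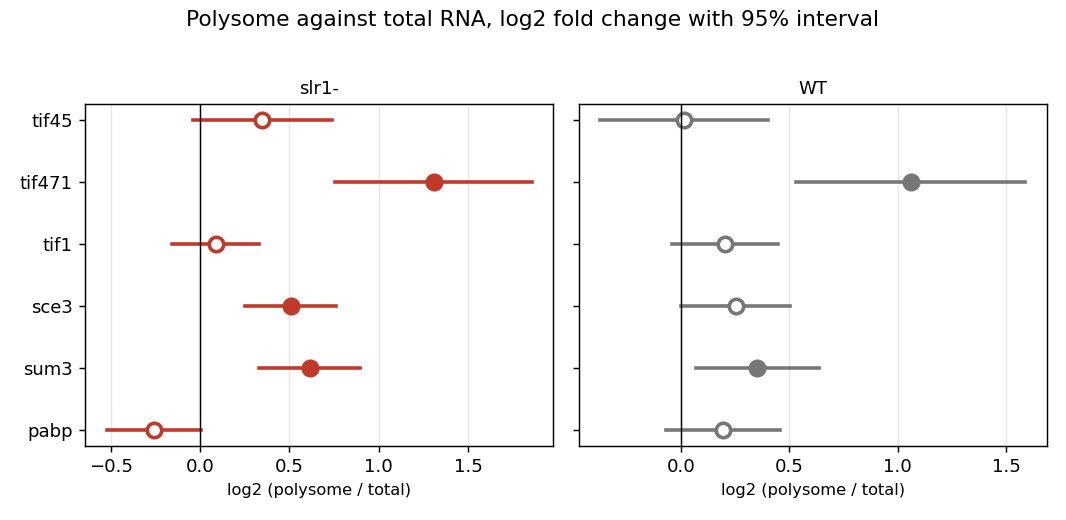
Log2 fold change of polysome over total RNA (x axis) for the 6 genes in slr1- and in WT. Points are estimates, lines are 95% intervals, and filled points passed the adjusted p threshold of 0.05. tif471 lies at 1.31 in slr1- and 1.06 in WT, and pabp at -0.26 in slr1- and 0.19 in WT.

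The difference between the strains in this ratio was tested as an interaction, which asks whether an mRNA shifts on or off polysomes beyond its change in total RNA. None of the 6 genes passed, against 0.380% of all genes (2 of 527, with 140 at an unadjusted p under 0.05). pabp had the smallest p of the 6, with a ratio in slr1- 0.730 times that in WT (log2 -0.45 ± 0.17 SE, 95% interval -0.83 to -0.08, unadjusted p 0.0212, adjusted p 0.120), and 34 genes had a lower value. It was negative in all 17 alternatives, from -0.73 to -0.34, with adjusted p from 0.0682 to 0.311. The other 5 values lay between -0.12 (tif1, 95% interval -0.47 to 0.23) and 0.33 (tif45, 95% interval -0.22 to 0.88), with a median over the 6 of 0.25 beside 0.15 over all genes and 0.24 over the genes that are not RP genes. The values of tif471 (0.25, 95% interval -0.51 to 1.00), sce3 (0.25, 95% interval -0.10 to 0.61) and sum3 (0.26, 95% interval -0.14 to 0.66) turned sign under RP-free scaling (-0.010 for tif471, -0.019 for sce3 and -0.013 for sum3). That of tif471 also turned without replicate 1 of slr1- total RNA (-0.13) or of slr1- polysome RNA (-0.039). The strain comparisons share their libraries with this test, so they are not independent of it.

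In the authors' deposited table the log2 fold changes of total RNA were -0.85 for tif471 (false discovery rate 0.00382), -0.46 for tif45 (0.0485), -0.39 for sce3 (0.0505), -0.27 for sum3 (0.194), 0.10 for tif1 (0.624) and 0.12 for pabp (0.578). At a false discovery rate of 0.05 on total RNA, the authors' deposited table thus has tif471 and tif45, with sce3 just past it. A column on the type of change in the authors' deposited table has the entry both for tif471 and tif45 and translational_only for tif1, sce3, sum3 and pabp, with the direction -1 for all 6 genes. Every listed gene carries 1 of these 2 entries in the authors' deposited table, and how they were assigned is not given in the sources used here. In its translation test pabp had the p of 0.0176, rank 23 of the 527 listed genes, with a false discovery rate of 0.680, while the other 5 genes had p from 0.145 to 0.870. The ratios of ratios in the authors' deposited table, from raw counts of same-numbered libraries, were 0.73 and 0.65 for pabp, 0.84 and 0.89 for tif1, and 1.83 and 0.74 for tif471. They were at least 1.07 in both replicates for tif45, sce3 and sum3.

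The members did not share 1 profile over the 8 libraries. As a measure of likeness, the root mean square difference of log2 normalised counts, each gene taken from its own mean, was smallest between sce3 and sum3 (0.11) and between tif1 and pabp (0.16), and largest between tif471 and pabp (0.76). The 2 listed genes most like tif471 were sfp1, a transcription factor gene (0.14), and ste13 (0.18), which encodes the Dhh1-type helicase of mRNA decapping, against a median of 0.76 over all genes. The nearest to pabp were yrs1, a tyrosine tRNA ligase gene (0.11), and tkt1, the transketolase gene (0.11). The nearest to sce3 were sks2, a ribosome-associated chaperone gene (0.052), and srs1, a serine tRNA ligase gene (0.055). tif1 was closest to fba1, the fructose-bisphosphate aldolase gene (0.061), and hom6, a homoserine dehydrogenase gene (0.066), sum3 to arp2 (0.072) and hom3 (0.078), and tif45 to pre5 (0.089) and bud20 (0.093). The measure runs over shared libraries and carries no p.

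The other translation initiation factors give the pathway beside the 6 genes. The list holds 3 genes that the reference does not annotate as initiation factors, tif51 and tif512 (elongation factor eIF5A, once counted with initiation) and tif6 (ribosome biogenesis), and none of the 3 passed in slr1- total RNA. Of 16 listed genes 7 fell in slr1- total RNA, against 33.6% of all genes, and 0 rose, against 19.7% of all genes. Their median log2 change was -0.30, which turned to 0.039 (5 lower, 1 higher) under RP-free scaling. The largest falls were in subunits of eIF3, the scaffold of the initiating small ribosomal subunit: tif302 (eIF3b, -1.07 ± 0.14 SE), int6 (eIF3e, -0.86 ± 0.14 SE) and tif303 (eIF3c, -0.86 ± 0.14 SE). In polysome RNA 0 of the 16 passed (median -0.035, and 0.026 under RP-free scaling), and in the interaction 0 passed, with the smallest p for tif302 (0.95 ± 0.19 SE, adjusted p 0.0531). The interaction median of the 16 genes was 0.26, which turned to -0.013 under RP-free scaling. In polysome over total RNA 11 of the 16 were higher and 0 lower in slr1-, against 34.0% higher and 30.7% lower of all genes. In WT 4 of the 16 were higher and 0 lower, against 20.9% higher and 28.8% lower of all genes. The highest of the 16 in both strains was tif5, at 1.89 ± 0.19 SE in slr1- and 1.24 ± 0.18 SE in WT. Both values lay above those of tif471 (1.31 in slr1- and 1.06 in WT). Under RP-free scaling 6 of the 16 were higher and 3 lower in slr1-, against 100 higher and 246 lower of all 527 genes. In WT 4 of the 16 were then higher and 1 lower, against 79 higher and 166 lower of all 527 genes.

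Genes that act on the cap or the poly(A) tail of an mRNA at its decay were few in the table. Of this list, the reference names lsm6 and lsm7 as U6 snRNP-associated proteins. All 4 that were listed fell in slr1- total RNA, against 33.6% of all genes. They were lsm1 (-0.98 ± 0.21 SE), ste13 (-0.85 ± 0.17 SE), lsm7 (-0.57 ± 0.20 SE) and lsm6 (-0.50 ± 0.20 SE). In polysome RNA 0 of the 4 passed. Under RP-free scaling or with DESeq2 size factors 2 of them were lower in total RNA. Of the 5 listed genes of the DEAD-box helicase list other than tif1 and sum3, 4 fell in total RNA, against 33.6% of all genes. They were dbp2 (-0.96 ± 0.13 SE), has1 (-0.88 ± 0.18 SE), ste13 (also in the decay list) and drs1 (-1.01 ± 0.18 SE). In the reference annotation drs1 is an aspartate tRNA ligase and no helicase. uap56 did not pass (-0.25 ± 0.14 SE). All 5 were higher in polysome than in total RNA in both strains, against 34.0% of all genes in slr1- and 20.9% in WT. Their median was 1.35 in slr1- and 0.64 in WT. Of the 3 genes found from the elongation and termination list, which leaves out tif51 and tif512, tef5 rose (0.47 ± 0.10 SE), the release factor gene sup35 fell (-0.70 ± 0.16 SE) and tef3 did not pass (0.19 ± 0.13 SE) in total RNA, and 0 passed in polysome RNA. Of all genes, 19.7% rose and 33.6% fell in total RNA. Under RP-free scaling 2 of the 3 listed genes were higher and 1 lower in total RNA.

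Over the listed genes the start windows and the changes were set side by side as a description. Among genes that are not RP genes, the 88 with a pyrimidine run of at least 8 bases had a median log2 change in total RNA of -0.31, and the 301 with shorter runs had -0.36. In polysome RNA these medians were -0.073 for the longer and -0.084 for the shorter runs. Among RP genes the 19 with the longer runs had a median of 0.35 in total RNA and the 107 others had 0.39. The 2 members with the longest runs, pabp and tif1, were those with positive values in total RNA at the main scaling. Both were negative with library sizes alone (-0.067 for pabp and -0.086 for tif1). Under RP-free scaling sum3, with a run of 4 bases, was positive as well (0.057). The values of tif45 and tif471, with runs of 8 bases, were negative. With 6 genes this is a description of these genes only.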

How the data were processed

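Total RNA and polysome RNA were depleted of ribosomal RNA, made into stranded libraries and sequenced as single 50 bp reads, per the labels. Alignment with Bowtie and quantification with RSEM are given in the submitters' processing notes, and the sources used here give neither versions nor a build or gene annotation. The deposited table holds whole-number counts for 527 genes, part of a longer table chosen by a rule that is not stated. Per the file headers it also holds the authors' log2 fold changes, p-values with false discovery rates, a direction score, and ratios between the fractions and the strains.

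All 8 count columns entered 1 fit in edgeR 4.0.16 (R 4.3.3), with TMM factors, quasi-likelihood fits with group means, 4 residual degrees of freedom and a common dispersion of 0.0127. No count filter was used, since the lowest mean was 161 counts, and all 6 members were tested. The Benjamini-Hochberg adjustment of p-values ran over all 527 genes at 0.05, and SE is the absolute log2 fold change over the square root of F. Each p-value sets a group difference against the spread between libraries, 2 per group, and not between independent slr1- clones. On counts simulated for total RNA, slr1- against WT, over 527 genes, 100 of 100 changes of 2-fold and 86 of 100 changes of 1.5-fold were recovered, with 2 calls among 327 unchanged genes. Recovery was not tested for each member at its own spread, where the SE in total RNA ran from 0.11 (tif1) to 0.25 (tif471). Nor was recovery tested under other scalings. Replicates differed by more than counting noise (chi-square 3370 to 13602 on 526 degrees of freedom). Same-numbered libraries did not deviate together as a rule (r across genes of -0.29 to 0.29), and the labels do not tie the numbers to a shared culture. Between total and polysome RNA of 1 strain, r was 0.29 in WT and 0.070 in slr1-, and the main fit did not pair these libraries.

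The members and lists were chosen with earlier results of these data known. Named genes are the 6 members, the 2 genes most like each, and up to 3 passing genes per direction of each list. The listed genes of the decay (4), helicase (5) and elongation (3) lists are all named, which goes beyond that rule. Alternatives were DESeq2 1.42.0 without independent filtering, limma-voom (limma 3.58.1), other scaling factors, 2 count filters, compared groups only, replicate blocks and leaving out each library. Of the count filters, filterByExpr of edgeR kept all 527 genes, so that fit repeats the main fit and is counted among the alternatives. Names, models and sequences came from RefSeq (assembly ASM294v3), which holds 515 of the 527 identifiers.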

Additional observations from a re-analysis of the deposited data

Results flagged for a closer look

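The polysome to total RNA value of pabp had opposite signs in the strains, and the libraries of the 2 fractions did not overlap in either. It was -0.26 on the log2 scale in slr1-, where both polysome libraries (878 and 816 normalised counts) lay below both total RNA libraries (1004 and 1025). In WT it was 0.19, where both polysome libraries (1064 and 1083) lay above both total RNA libraries (1014 and 861). The test of the difference itself, the interaction, gave -0.45 with an adjusted p of 0.120 (edgeR quasi-likelihood test), so it did not pass. Such opposite sides were found for 22 of the 527 listed genes (4.17%), and for 1 of the 6 genes described here.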

How the results depend on the processing

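Of 404 values of the 6 genes under an alternative, 340 kept their direction and side of the threshold, 25 lost a call, 17 gained one and 22 turned sign. Among the 340 are all values with the filterByExpr filter, which removed no gene and so repeats the main fit. Minus the median of all listed genes, the total RNA values varied little between the scalings. The ranges were 0.303 to 0.305 for pabp, 0.282 to 0.285 for tif1 and -0.690 to -0.667 for tif471. They were -0.278 to -0.275 for tif45, -0.214 to -0.210 for sce3 and -0.091 to -0.087 for sum3. The cause of the turns was not tested. Under RP-free scaling values turned for sum3 in total RNA (0.057), tif1 (0.037) and sum3 (0.044) in polysome RNA, tif471 (-0.010), sce3 (-0.019) and sum3 (-0.013) in the interaction, tif45 in WT (-0.088) and slr1- (-0.031) and tif1 in slr1- (-0.29) for polysome over total RNA. Library sizes alone turned tif1 (-0.086) and pabp (-0.067) in total RNA and pabp in polysome over total RNA of slr1- (0.14), and genes of at least 500 counts turned tif1 (-0.048) and pabp (-0.029) in total RNA. Leaving out 1 library at a time turned pabp in total RNA (range -2.8e-04 to 0.24), tif1 (-0.13 to 0.043) and sum3 (-0.11 to 0.065, also 0.025) in polysome RNA, tif471 in the interaction (-0.13 to 0.74, also -0.039), tif45 in WT (-0.18 to 0.25) and tif1 in slr1- (-0.032 to 0.15) for polysome over total RNA.

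The counts of listed genes past the threshold moved as follows. Genes of at least 500 counts, which leave 312 genes in the fit, gave 134 (281 with all genes) in total RNA, 13 (2) in the interaction, 160 (262) in WT and 197 (341) in slr1- for polysome over total RNA. DESeq2 gave 12 (0) in polysome RNA and 37 (2) in the interaction, where limma-voom and RP-free scaling gave 0 and library sizes alone 31. The replicate block gave 9 in the interaction and 274 in total RNA, and a replicate block per strain, which assumes that same-numbered total and polysome libraries share a culture, gave 46. Among the 6 genes the replicate block ended the calls of tif45 in total RNA and of sum3 in WT polysome over total RNA, and no other. Crossed replicate numbers, added after the data had been seen because same-numbered total RNA libraries deviated in opposite directions (r -0.14 across genes), gave 303 in total RNA. Leaving out 1 library gave 127 to 288 in total RNA, 0 to 2 in polysome RNA, 0 to 77 in the interaction, and for polysome over total RNA 163 to 228 in WT and 277 to 339 in slr1-. Those fits give a lone library the spread of the other groups. For polysome over total RNA the genes passing were 179 higher and 162 lower in slr1- and 110 higher and 152 lower in WT, against 292 and 94 in slr1- and 246 and 104 in WT with library sizes alone, and 100 and 246 in slr1- under RP-free scaling. tif471 and tif45, with means of less than 500 counts, were not in the fit with that filter.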
